A study of Emberiza melanocephala with 12 samples.

Results

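A set of 44 zinc finger genes was described in the liver of blackheaded buntings by seasonal state and by time of day. They were all the gene ids with a symbol starting ZNF, ZBTB, ZFP or KLF that the study named in its list of genes differing between states (the state list) or its list of genes cycling over the day (the cycling list), and that had an expression value above 0.1 FPKM (sequenced fragments scaled to transcript length and to the mapped reads of the library) in at least 10 of the 12 libraries. The lists held 53 such ids, 44 of them passed, and 9566 of the 18284 genes listed in the files passed the same threshold. The cycling list named 37 of the 44, of which 3 (ZNF407, ZNF507 and ZNF76) were also on the state list, and the state list alone named the other 7. Those 7 (KLF12, KLF13, ZBTB11, ZBTB38, ZBTB41, ZNF366 and 1 id of ZNF654) had been chosen for a difference between states in these same libraries, so their state difference is given as a description without a test. The cycling list had been chosen by the time course within each state, so the state difference of its 37 ids could be tested and their time of day is described only.

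The study asked how the liver of a night-migrating songbird differs between seasons. All birds were adult male buntings held on long days (16 h light, 8 h darkness) when sampled. The 6 birds in the migratory state (M, labelled LDM) had been photosensitive on short days and were then moved to long days until they showed nocturnal migratory restlessness. The 6 birds in the non-migratory state (nM, labelled LDR) were photorefractory, had already been on long days and stayed on them. RNA was sequenced from 1 bird per state every 4 h from ZT1 to ZT21 (ZT counts hours from lights on, with darkness from ZT16), so a state was represented by 6 birds of different times of day and no time within a state had a replicate.

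A zinc finger is a short protein fold held by a zinc ion, and arrays of the C2H2 kind read DNA sequence in the largest family of vertebrate transcription factors. Krüppel-like factors (KLF) bind GC-rich promoter elements, and several of them act in metabolism and in liver injury. Proteins that join zinc fingers to a BTB domain (ZBTB) mostly recruit corepressors, and FOG proteins (ZFPM) bind GATA factors rather than DNA. A symbol is no proof of such a role. Of the 44 ids, 9 encode proteins known mainly for work on RNA, the spindle, SUMO transfer or the nucleolus: ZBTB8OS (archease, a cofactor of the tRNA ligase), ZFP36L1 (which directs mRNA decay), ZFP106 and ZNF326 (RNA binding), ZNF207 and ZNF828 (spindle attachment of chromosomes), ZNF259 (ZPR1, which binds a translation elongation factor), ZNF330 (nucleolar) and ZNF451 (a SUMO ligase). The set was therefore zinc finger genes by symbol, of which 33 belonged to groups known for work in transcription or chromatin and 2 (ZNF319 and ZNF511) were little described.

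Levels ranged widely. Mean FPKM over the 12 libraries was above 10 in 14 of the 44 and under 1 in 4 (ZBTB5, KLF11, ZNF367 and ZFPM2). The highest were ZNF259, ZFP36L1, ZBTB8OS and ZNF639. ZNF259 came first only through the M library of ZT17, at 469 FPKM against 34.6 to 79.0 in the other libraries. Close to the threshold, 1 id of ZNF654 passed with exactly 10 libraries above 0.1 FPKM, whereas ZNF503 reached it in 8, ZNF385C in 6 and ZNF608 in 5 libraries and were left out. ZNF503, on both lists, was 0.214 to 0.891 FPKM in M and 0 to 0.254 in nM. ZNF385C was 0 to 0.338 in M and 0 to 0.210 in nM, and ZNF608 0 to 0.169 and 0 to 0.249. ZNF503 and ZNF385C were listed at 0 in most nM libraries, and the counts of higher and lower genes below leave them out. The remaining 6 ids left out (ZFP1-1, ZNF512, ZNF638 and 3 ids of ZNF493) were listed at 0 in all 12 libraries. A listed 0 may be a failed estimate and not a lack of RNA, since ALB, the gene of serum albumin, was listed at 0 in 4 libraries and at 17300.2 FPKM or more in the other 8. Of the 44, 8 were listed at 0 in at least 1 library.

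One library stood apart. In the M library of ZT17, 645 of the genes compared were listed at 0, against 9 to 257 in the other 11, and its median rank correlation with them over these genes was 0.703, where the others reached 0.895 or more. It held the lowest of the 12 values for 27 of the 44 zinc finger genes, counting ZNF654 (13488), which was also listed at 0 in the M library of ZT13. The share over all genes compared was 37.4%, with ties left out. This library held the highest value for 5 (31.0%), namely ZNF259, ZNF276, KLF2, ZNF511 and ZNF76. Fold changes that it moved by over 1.5 times are given with and without it. FPKM files keep no read counts per gene, so no counting interval could be given. The study listed raw reads by library, and these differed widely. They were fewest in the nM library of ZT13, which held 257 of the genes compared at 0, and most in the nM library of ZT5. The M library of ZT17 lay between them. The M library of ZT9 had the lowest share of high-quality bases.

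State was compared by limma on log2(FPKM + 1), with a false discovery rate below 0.1 over all 9566 genes and an absolute log2 fold change above 0.1. On this scale a fold change is the difference between state means of log2(FPKM + 1), and it understates the ratio of low genes. Among the 37 zinc finger genes of the cycling list, 4 were lower in the M state (ZNF507, ZNF292 and 1 id each of ZNF654 and ZNF407), 0 were higher and 33 did not pass. Of all 3872 compared genes on the cycling list, 5.97% were lower and 2.79% higher, and over all genes compared the shares were 6.48% and 2.84%, and no test set the 4 of 37 (10.8%) apart from these shares. An unadjusted p under 0.05 was reached by 15 of the 37 (24.7% of the cycling list), and ZNF76, ZNF259, ZNF276 and KLF11 were the higher ones among them. The mean was lower in M for 26 of the 37, against 55.1% of the cycling list, and the median log2 fold change of the 37 was -0.38 against -0.08. The genes all share the same 12 birds and are not independent of each other, and in bulk liver fewer cells of a type and less RNA per cell cannot be told apart.

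**Figure D1:**
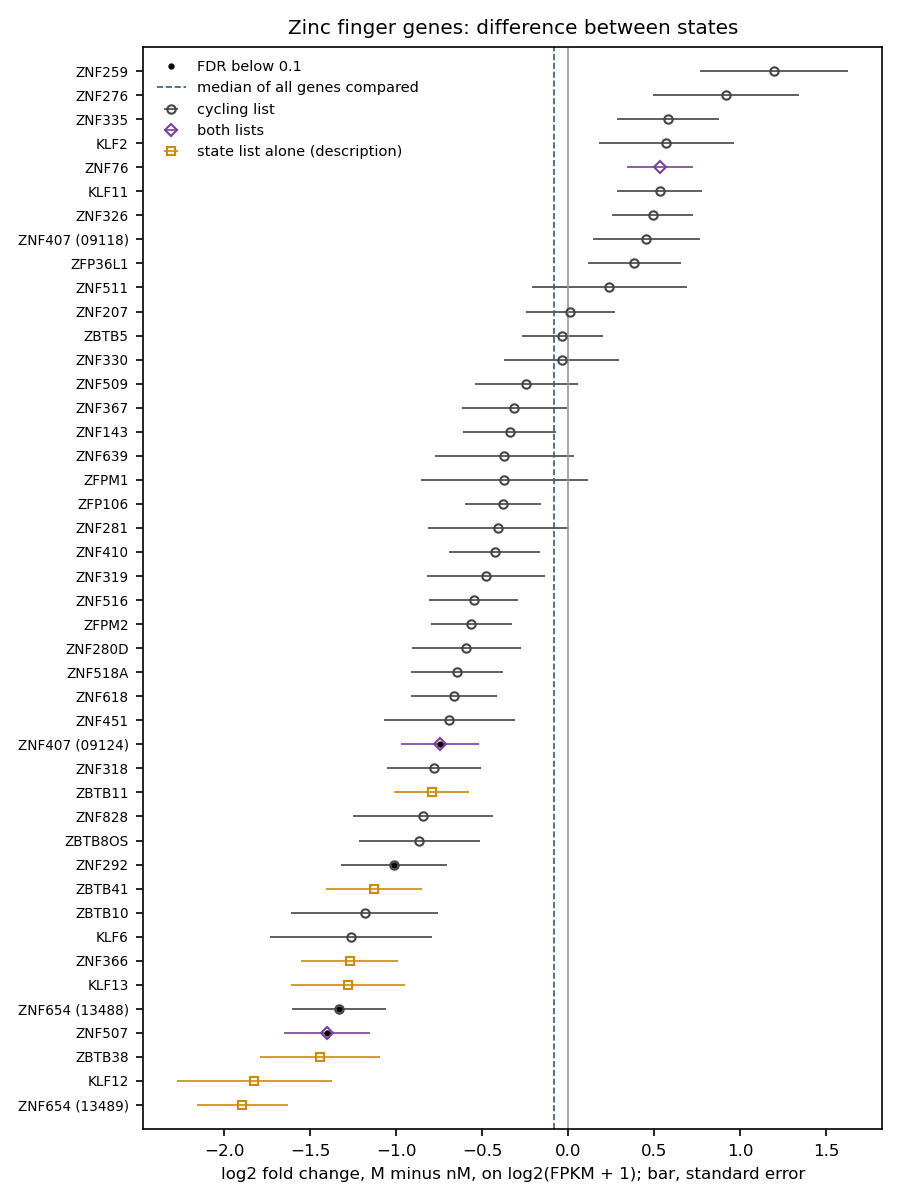
Log2 fold change between states (M minus nM, on log2(FPKM + 1)) with its standard error for each of the 44 zinc finger genes, by the list that named them; a filled dot marks a false discovery rate below 0.1 among the ids of the cycling list, the only ones tested, and the dashed line the median of all genes compared, -0.08. The 4 called genes lie between -0.75 and -1.40, and the highest value, ZNF259 at 1.20, was not called.

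Without the M library of ZT17, 6 of the 37 were lower and 2 higher (7.59% and 3.69% of the cycling list). KLF6 and ZNF618 joined the lower calls, at -0.79 and -0.81 (adjusted p = 0.0827 and 0.0398), and ZNF259 and the other id of ZNF407 were the higher calls. Scaling every library to the same FPKM total left 2 lower calls (ZNF507 and ZNF654) and 1 higher (ZNF259), where the cycling list held 1.14% lower and 1.68% higher.

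ZNF507, a C2H2 protein, gave the lowest p of the 37. In the M libraries ZNF507 (ENSTGUG00000009020) was between 0 and 1.37 FPKM with a median of 0.357. In the nM libraries it was between 2.10 and 4.59 with a median of 2.98. Every M library lay below every nM library, with the M libraries of ZT9 and ZT1 nearest. The log2 fold change was -1.40 (standard error 0.25, adjusted p = 0.0173 by limma), and it stayed below the threshold with each of the 12 libraries left out in turn (adjusted p at most 0.0564). The state list had also named it.

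The symbol ZNF654 stands for a C2H2 protein and was carried by 2 zebra finch ids, numbered 13488 and 13489 at their ends, which may not be separate genes. Id 13488, from the cycling list, was 0 to 0.534 FPKM in M (median 0.226) and 0.942 to 5.12 in nM (median 1.83). The state groups of this id did not overlap, although it was listed at 0 in the M libraries of ZT13 and ZT17. Its log2 fold change was -1.33 (standard error 0.27, adjusted p = 0.0257 by limma), and it passed in all 12 rounds with a library left out (adjusted p at most 0.0701). Id 13489, from the state list alone, was 0.165 to 0.892 FPKM in M (median 0.487) and 2.14 to 8.87 in nM (median 4.47), a log2 difference of -1.89, the most negative of the 44. Here too all M libraries were below all nM libraries. In both ids the nM library of ZT1 was the highest of the 12 and the nM library of ZT5 the lowest of its state.

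ZNF292 is a large zinc finger protein first described in the rat as an activator of the growth hormone gene. It was 0.266 to 4.93 FPKM in M (median 2.03) and 3.73 to 6.68 in nM (median 5.04). Only the M library of ZT1, at 4.93 FPKM, reached into the nM range, and the next M library was at 2.22. The log2 fold change was -1.01 (standard error 0.31, adjusted p = 0.0805 by limma). The call held in 3 of the 12 rounds with a library left out, those without the M library of ZT1 or ZT17 or the nM library of ZT5, and the adjusted p was at most 0.159 in the others. With all 12 libraries, limma missed the threshold at equal totals (adjusted p = 0.245), by median ratio scaling (0.101) and with a pseudocount of 0.1 (0.115). Linear regression without moderation missed it too (0.109). Limma after quantile normalization and the exact Wilcoxon test kept the call (0.0617 and 0.0801).

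ZNF407, which in mouse adipocytes takes part in transcription of genes for glucose uptake, was also carried by 2 ids, 09124 and 09118. Id 09124 was 0.205 to 1.5 FPKM in M (median 0.528) and 1.15 to 2.72 in nM (median 1.58). It was lower in M at each of the 6 times, and again the M library of ZT1 alone entered the nM range. The log2 fold change was -0.75 (standard error 0.23, adjusted p = 0.0806 by limma), past the threshold in the same 3 of 12 rounds as ZNF292 (adjusted p up to 0.17). Id 09118 went the other way, with 0.546 to 4.71 FPKM in M (median 3.18) and 0.926 to 3.23 in nM (median 1.71). M was the higher state for this id at 5 of 6 times, all but ZT17. Its log2 fold change of 0.46 (standard error 0.31) did not pass (adjusted p = 0.352) but was 0.72 without the M library of ZT17 (adjusted p = 0.0599). Whether the ids are parts of 1 gene was not tested, as no annotation was used here.

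**Figure D2:**
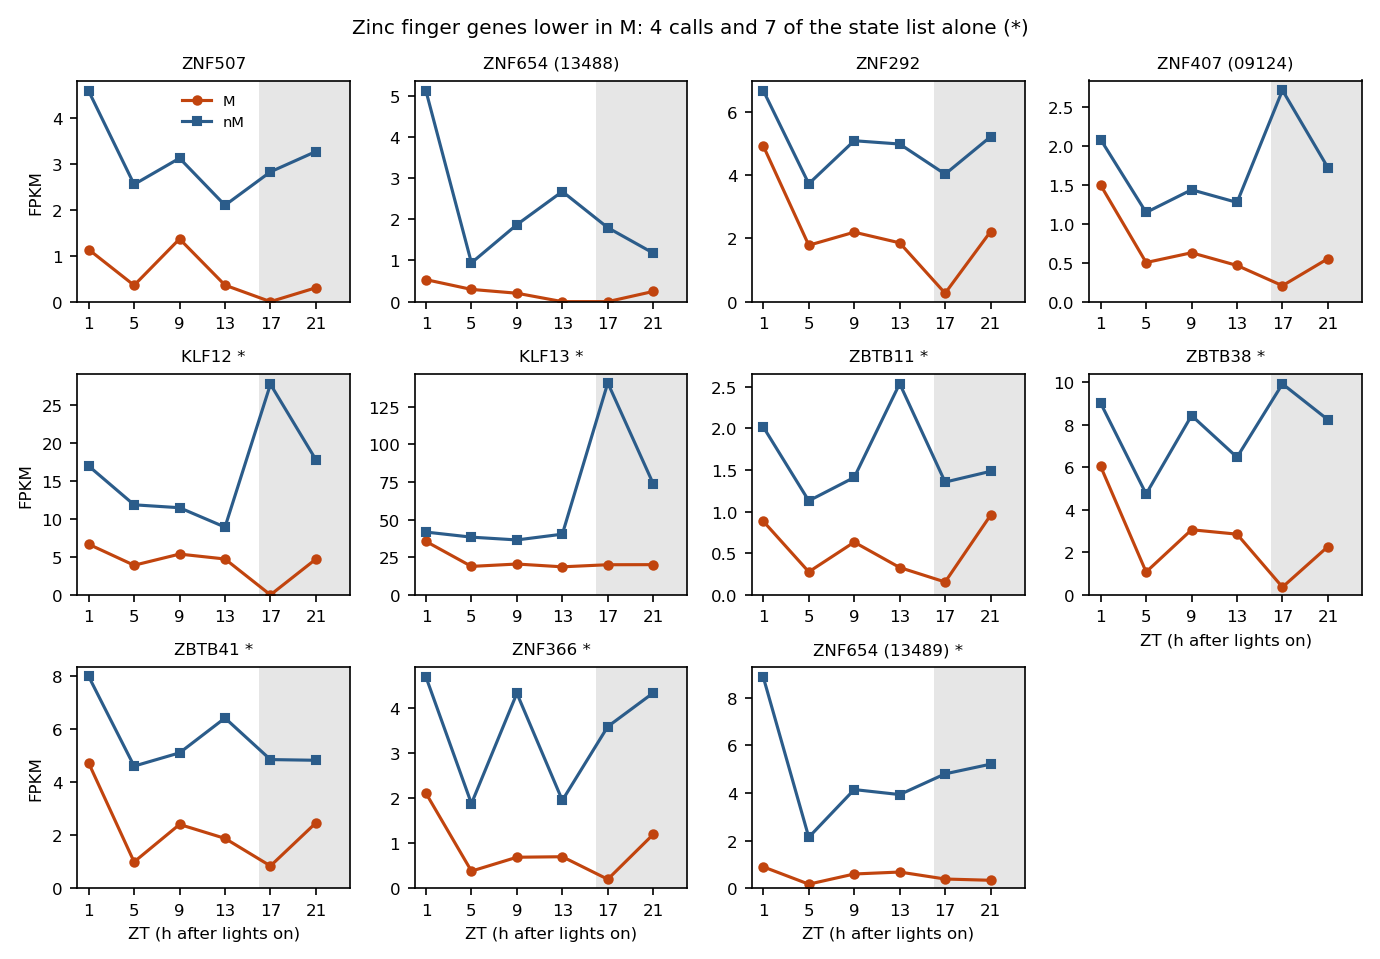
FPKM in each library against time of day (ZT, hours after lights on, darkness shaded) for the 4 zinc finger genes of the cycling list called between states and, marked by an asterisk and shown as a description, the 7 ids of the state list alone, M in orange and nM in blue. M lies below nM at all 6 times in each of the 11 panels.

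The set held 5 Krüppel-like factors, and their values did not all lean one way. KLF12, a repressor of the AP-2 alpha gene in human cells, was 0 to 6.66 FPKM in M (median 4.71) and 8.92 to 27.7 in nM (median 14.4), a log2 difference of -1.82. KLF13, known in human T cells as an activator of the chemokine gene RANTES, was 18.6 to 35.5 FPKM in M (median 20.1) and 36.5 to 141 in nM (median 41.1), a log2 difference of -1.28. Both came from the state list alone, and in both every M library was below every nM library. In KLF13 the nearest values were 35.5 in the M library of ZT1 and 36.5 in the nM library of ZT9, and the 2 nM libraries taken in darkness were highest, at 141 and 73.9 FPKM.

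Among the 3 Krüppel-like factors of the cycling list none passed between states. KLF6, which is induced early in mammalian liver injury, was 0.583 to 19.9 FPKM in M (median 8.47) and 13.7 to 21.5 in nM (median 19.4). Its M values were below nM at all 6 times, though the M library of ZT1 lay within the nM range, and its log2 fold change was -1.26 (SE 0.47, adjusted p = 0.132). KLF11, a repressor induced by TGF-beta in human cells, was 0.556 to 1.89 FPKM in M (median 0.977) and 0 to 1.34 in nM (median 0.335). Only at ZT1 was nM the higher state for KLF11, and its log2 fold change was 0.53 (standard error 0.25, adjusted p = 0.197). KLF2, a flow-induced factor of endothelial cells, was 0.964 to 6.01 FPKM in M (median 1.74) and 0 to 3.37 in nM (median 1.22), and its log2 fold change was 0.57 (SE 0.39, adjusted p = 0.356) and 0.34 without the M library of ZT17. KLF2 was lower in M at ZT1, ZT5 and ZT9 and higher at ZT13, ZT17 and ZT21, and the states overlapped.

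All 6 BTB zinc finger genes of the set had a lower mean in M, as did 54.9% of all genes compared. Of the 6, 3 came from the state list alone and so were chosen by the state contrast. ZBTB38, which binds methylated DNA in mammalian cells, was 0.365 to 6.04 FPKM in M (median 2.57) and 4.75 to 9.93 in nM (median 8.34), a log2 difference of -1.44. ZBTB41 was 0.834 to 4.71 FPKM in M (median 2.14) and 4.60 to 7.98 in nM (median 4.97), a log2 difference of -1.13. ZBTB11, a repressor needed for blood cell development in zebrafish, was 0.155 to 0.956 FPKM in M (median 0.481) and 1.13 to 2.54 in nM (median 1.45), a log2 difference of -0.79. In ZBTB11 the states did not overlap, and in ZBTB38 and ZBTB41 the M library of ZT1 was the only one to reach the nM range. The cycling list gave the other 3, and none of them passed. ZBTB10, a repressor of the Sp1 gene in human cells, was 0.786 to 10.8 FPKM in M and 7.01 to 24.9 in nM, lower at all 6 times, and its log2 fold change was -1.18 (SE 0.43, adjusted p = 0.121). ZNF509, now called ZBTB49, and ZBTB5 had log2 fold changes of -0.24 and -0.03. Without the M library of ZT17 these were -0.04 and 0.09, and the sign of ZBTB5 also turned with the scaling.

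Of the 20 other C2H2 ids in the groups of transcription and chromatin, 18 were on the cycling list, and these held all 4 of its calls. The remaining 14 had log2 fold changes from -0.78 to 0.91, with 10 below 0 and 4 above. ZNF318, which in mouse B cells governs the switch from IgM to IgD transcripts, was nearest to the threshold among the lower ones, at 0.402 to 3.15 FPKM in M and 1.56 to 4.26 in nM (log2 fold change -0.78, standard error 0.27, adjusted p = 0.112). It was lower in M at each of the 6 times, as were ZNF618 (-0.67), which in human cells binds DNA marked by 5-hydroxymethylcytosine, and ZNF280D (-0.59, or -0.31 without the M library of ZT17). ZNF518A, ZNF516, ZNF410, ZNF281, ZNF639, ZNF143 and ZNF367 followed, between -0.65 and -0.31. Without the M library of ZT17, in which both were listed at 0, ZNF281 moved from -0.41 to -0.03 and ZNF367 from -0.31 to -0.17. ZNF516 activates the brown fat gene Ucp1 in the mouse, ZNF410 maintains the remodeller CHD4 in human and mouse cells, and ZNF281 binds GC-rich promoters. ZNF366, a corepressor of estrogen receptor signalling in human cells, came from the state list alone and was 0.196 to 2.11 FPKM in M (median 0.692) and 1.88 to 4.70 in nM (median 3.97), a log2 difference of -1.27 with only the M library of ZT1 inside the nM range.

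ZNF143 and ZNF76 are close relatives that activate transcription from small nuclear RNA and mRNA promoters, and their values pointed in opposite directions. ZNF76 was 5.08 to 7.13 FPKM in M (median 5.56) and 2.61 to 4.74 in nM (median 3.72). Every M library was above every nM library. On the log2 scale the difference was 0.53 (standard error 0.19), which missed the threshold (adjusted p = 0.12 by limma), and the state list had named it too. ZNF143 was 2.23 to 8.24 FPKM in M (median 6.49) and 5.76 to 11.1 in nM (median 7.43), a difference of -0.34 on the log2 scale (SE 0.27, adjusted p = 0.421 by limma). ZNF143 overlapped between states, and without the M library of ZT17 its difference was -0.12. The difference between the relatives was not tested.

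ZNF259 gave the other complete separation with M above nM. It was 61.1 to 79.0 FPKM in 5 M libraries, 469 FPKM in the M library of ZT17, and 34.6 to 47.1 in nM. The log2 fold change was 1.20 (standard error 0.43, adjusted p = 0.121 by limma), and 0.73 without the M library of ZT17 (adjusted p = 0.0241). With all 12 libraries at equal totals it was 1.04 (adjusted p = 0.0792). ZNF276 was higher in M at all 6 times but rested more on the M library of ZT17, at 34.9 FPKM against 3.29 to 6.77 in the other 5 and 2.41 to 5.69 in nM (0.91, standard error 0.42, adjusted p = 0.197). Without that library it was 0.49 (adjusted p = 0.181). ZNF335, part of a histone methyltransferase complex in human cells, had a log2 fold change of 0.58 and also did not pass.

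Over the 37 ids of the cycling list, 2 were complete separations with M above nM (0.697% of all compared genes of that list) and 2 with M below (ZNF507 and ZNF654, 3.23%). Over all 44 ids, 6 had every M library below every nM library and 2 every M library above (3.40% and 0.784% of all genes compared), but 4 of the 6 were chosen by the state contrast.

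None of the other groups gave a call. ZFPM1 and ZFPM2, the FOG cofactors, were at log2 fold changes -0.37 (adjusted p = 0.63) and -0.56 (adjusted p = 0.16), and ZFPM2 was lower in M at all 6 times, at 0.104 to 1.13 FPKM against 0.702 to 1.94. ZFPM1 was at -0.69 without the M library of ZT17, and with each library left out in turn it ranged from -0.69 to -0.0017. Its highest value was 27.6 FPKM in the nM library of ZT5, against 2.72 to 8.21 in the other nM libraries. Among the 9 genes with RNA, spindle or other cellular roles, 5 had a lower and 4 a higher mean in M, with a median log2 fold change of -0.04. ZBTB8OS was the lowest of them, at 16.2 to 65.1 FPKM in M and 38.6 to 117 in nM (-0.87, standard error 0.35, adjusted p = 0.153), followed by ZNF828 (-0.84), ZNF451 (-0.69) and ZFP106 (-0.38). Without the M library of ZT17, ZNF828 was at -0.46 and ZNF451 at -0.32. ZNF326 and ZFP36L1 had positive values of 0.49 and 0.38. ZNF207 and ZNF330 were within 0.04 of 0 and changed sign with the scaling and without the M library of ZT17, ZNF330 then standing at 0.21. ZNF319 and ZNF511 were at -0.48 and 0.24, and at -0.19 and -0.05 without the M library of ZT17.

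**Figure D3:**
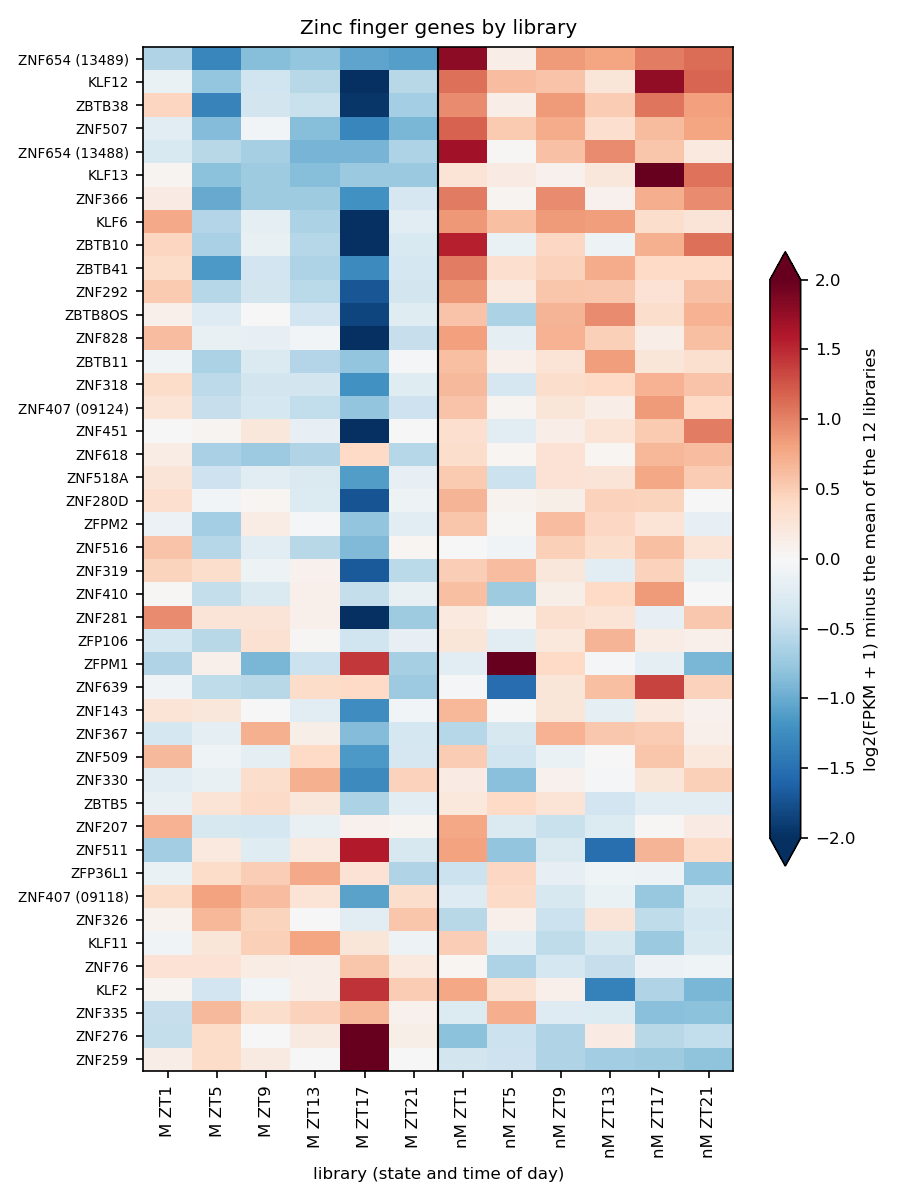
Deviation of log2(FPKM + 1) from the mean of the 12 libraries for the 44 zinc finger genes (rows, ordered by log2 fold change) in each library (columns, M on the left of the line and nM on the right). Most upper rows are blue in M and red in nM except at ZT1 in M and ZT5 in nM, and the M library of ZT17 holds the lowest value in 27 rows.

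A pair of libraries crossed the state difference repeatedly. Of the 33 zinc finger genes with a lower mean in M, 27 overlapped between states. The M library of ZT1 was at or above the lowest nM value in 26 of these 27 and was the highest M value in 17. Likewise the nM library of ZT5 was at or below the highest M value in 24 and was the lowest nM value in 17. These counts include values beyond the far end of the other state's range. For the M library of ZT1 the same shares were 87.9% and 40.9% over the 4924 genes compared with a lower mean in M and overlapping states. For the nM library of ZT5 they were 80.8% and 43.1%. Both were then left out, a choice made because they lay nearest to the other state, which by itself raises separation. Without them 10 of the 37 ids of the cycling list were fully separated with M below nM (12.1% of that list), and the calls among the 37 were 13 lower and 2 higher, and the shares over the cycling list 15.1% and 10.2%. The labels gave no property of these birds beyond state and time, and what set the libraries apart was not tested.

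By time of day, the number of the 37 ids of the cycling list lower in M than in nM was 27 at ZT1, 19 at ZT5, 22 at ZT9, 23 at ZT13, and 26 at both ZT17 and ZT21. The same pairs of libraries gave 61.2%, 45.9%, 51.2%, 51.8%, 57.0% and 54.1% of all compared genes of that list. Both series were lowest at ZT5. The median log2 difference of the 37 was between -0.30 and -0.02 at the other 5 times and -1.37 at ZT17, where the M library that stood apart was compared (-0.34 over the cycling list). At all 6 times M was below nM in 10 of the 37, namely KLF6, ZBTB10, ZFPM2, ZNF280D, ZNF292, ZNF318, ZNF407 (09124), ZNF507, ZNF618 and ZNF654 (13488), against 13.5% of all genes compared. M was above nM at all 6 times in 3 (ZNF259, ZNF276 and ZNF76, against 6.91%).

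**Figure D4:**
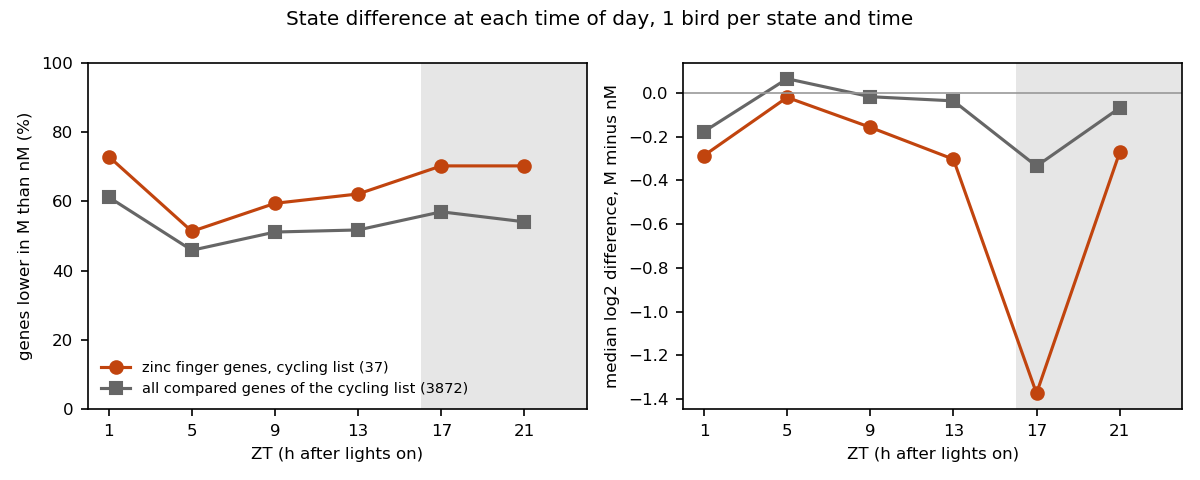
Share of genes lower in M than in nM (left, percent) and median log2 difference M minus nM (right) at each time of day, for the 37 zinc finger genes of the cycling list (orange) and all 3872 compared genes of that list (grey); each point compares 1 bird with 1 bird. The zinc finger genes lie above the list in share at every time, and their median falls to -1.37 at ZT17.

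Within a state, zinc finger genes were most often highest shortly after lights on. The M library of ZT1 was the highest of its state for 22 of the 44 (25.4% of all genes compared) and the nM library of ZT1 for 17 (25.9%). The lowest value fell at ZT17 in M for 28 (43.1%) and at ZT5 in nM for 21 (31.6%). With 1 bird per state and time, a time of day and a bird cannot be told apart, and with equal FPKM totals the nM count at ZT1 became 5.

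The fitted 24-h cosine over both states was largest in ZNF639, with an amplitude of 0.74 on the log2 scale and a fitted peak at ZT16.2. ZNF639, a C2H2 protein known as ZASC1, ranged from 28.4 FPKM (ZT21) to 63.1 FPKM (ZT17) in M and from 16.1 (ZT5) to 124 (ZT17) in nM, so that both states were highest at ZT17. KLF6 followed with an amplitude of 0.62, and it was 19.9 FPKM in M and 21.5 in nM at ZT1, the highest library of each state. For KLF6 the fitted amplitude was 1.10 in M, where the ZT17 library was at 0.583 FPKM, and 0.25 in nM.

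ZBTB10 (amplitude 0.56) was likewise highest at ZT1 in both states, at 10.8 and 24.9 FPKM. ZNF281 (0.55) was highest at ZT1 in M, at 7.06 FPKM, and at ZT21 in nM, at 5.10, and it was listed at 0 in the M library of ZT17. ZNF276 (0.54) was highest at ZT17 in M and at ZT13 in nM. ZNF319 (0.52) was highest at ZT1 in M, at 10.1 FPKM, and at ZT5 in nM, at 11.6 FPKM. Of these 6, 3 (ZNF281, ZNF276 and ZNF319) peaked in different libraries in the 2 states, and in all 6 the M library of ZT17 was the highest or the lowest of its state.

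**Figure D5:**
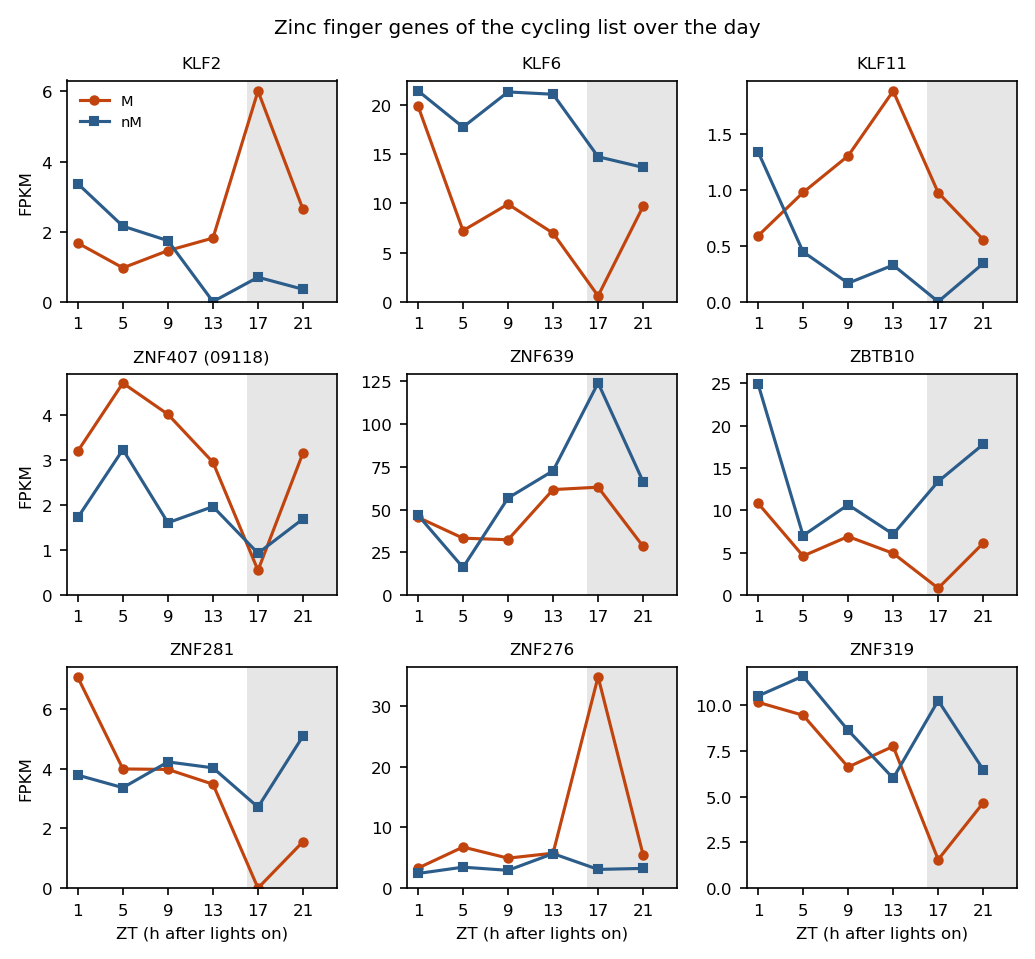
FPKM in each library against time of day (ZT, hours after lights on, darkness shaded) for the 3 Krüppel-like factors of the cycling list, ZNF407 (09118) and the 5 other zinc finger genes with the largest fitted 24-h amplitude, M in orange and nM in blue. KLF11 was highest at ZT13 in M, at 1.89 FPKM, and at ZT1 in nM, at 1.34 FPKM, and ZNF639 was highest at ZT17 in both states.

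For the 7 ids of the state list alone, which were not chosen by time, the shared 24-h cosine could be tested with state in the model. By limma 0 of the 7 passed a false discovery rate below 0.1 and 0 had an unadjusted p under 0.05 (0.0523% and 8.24% of all genes compared). An ordinary regression without moderation also gave 0 and 0. The lowest p among them was 0.196 (adjusted p = 0.728), for KLF13, with a fitted amplitude of 0.43 and a peak at ZT19.7. The amplitudes of the others ran from 0.08 in ZBTB11 to 0.36 in KLF12.

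Other zinc finger transcription factors, taken from a list of 70 symbols, were read beside them. Of the 22 that could be compared, the cycling list held 20, of which 2 (EGR1 and RREB1) were lower in M and 0 higher, and 5 of the 20 had an unadjusted limma p below 0.05. Of the whole cycling list 5.97% were lower, and 24.7% had an unadjusted limma p under 0.05. The mean was lower in M for 15 of the 20, against 55.1% of the cycling list. It was higher for the other 5, none of them called: PRDM11 (1.24), BCL6 (0.96), GATA6 (0.61), GATA2 (0.49) and GATA3 (0.11). REST, a repressor of neuronal genes, and BCL11B came from the state list alone, with log2 differences of -2.44 and -0.27. EGR1, an immediate early factor, was 3.52 to 18.6 FPKM in M and 22.7 to 100.8 in nM, without overlap (log2 fold change -2.11, adjusted p = 0.0299 by limma). RREB1, a factor acting downstream of RAS signalling, was 2.37 to 8.08 FPKM in M and 6.82 to 13.5 in nM, with the M library of ZT1 inside the nM range (-1.18, adjusted p = 0.0355). The median log2 fold change of the 20 was -0.25, against -0.08 over the cycling list. Corepressors and coactivators that zinc finger proteins recruit gave 0 calls by limma among 10 on the cycling list, NCOR1, SIN3A, HDAC2 and CTBP1 among them, with a median of -0.28 and 1 of the 10 at an unadjusted p under 0.05. RCOR1, the corepressor of REST, came from the state list alone, with a log2 difference of -2.37.

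Markers of liver cell types were read for the same libraries. The 3 hepatocyte markers compared (APOB, FGB and HNF4A) were expressed in every library, at a summed 2154 to 6837 FPKM in M and 2440 to 27494 in nM. Summed levels of 4 endothelial markers were 22.5 to 40.5 FPKM in M and 32.0 to 49.0 in nM, those of 6 stellate or fibroblast markers 168.8 to 325.8 and 289.8 to 460.9, and those of 4 macrophage and other leukocyte markers 51.9 to 204.7 and 92.0 to 215.7. All 4 of these sums had both a lower minimum and a lower maximum in M, with overlapping ranges. Such ends are single libraries, and the leukocyte sum was higher in M on average. Mean FPKM was higher in M for LCP1 (49.9 against 41.0), CSF1R (32.8 against 18.1) and SPI1 (59.7 against 45.7). It was lower in M for PTPRC (10.05 against 18.6). The 1 cholangiocyte marker compared, KRT7, had a higher minimum and maximum in M, at 13.6 to 45.8 FPKM in M and 8.08 to 36.7 in nM. Its log2 fold change of 0.65 did not pass (adjusted p = 0.282 by limma). For the hepatocyte and leukocyte sums the M minimum was the M library of ZT17, which stood apart. In both of these sums the other M libraries lay above the nM minimum. The nM maximum of the hepatocyte sum rested on FGB, at 26712 FPKM in the nM library of ZT1. The largest part of the stellate sum was DCN, with a mean of 166 FPKM in M and 299 in nM. Its log2 fold change of -1.12 did not pass (adjusted p = 0.163 by limma). Single markers did not all follow, as 3 of the 6 stellate markers (LUM, COL1A2 and DES) had a higher mean log2 value in M. So did HNF4A (log2 fold change 0.10) and 3 of the 4 leukocyte markers, CSF1R (0.90), SPI1 (0.43) and LCP1 (0.03). PTPRC (-1.01), APOB (-0.58), FGB (-0.30) and all 4 endothelial markers had a lower mean. PDGFRB, a stellate marker with a lower mean, was on the state list alone. RGS5, another stellate marker, was listed at 0 in all 12 libraries. Summed levels of 3 erythroid markers were 23.5 to 188.8 FPKM in M and 12.6 to 41.2 in nM, and those of 3 proliferation markers 29.7 to 208.0 and 16.5 to 33.6, of which CCNB2 was called higher (adjusted p = 0.045 by limma). Both of these M maxima were the M library of ZT17, with SLC4A1-1 at 183 and PCNA at 189 FPKM. In the other M libraries SLC4A1-1 was 20.7 to 63.4 and PCNA 24.5 to 41.1 FPKM. The part of the markers in the state differences was not tested.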

How the data were processed

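Poly-A selected liver RNA was sequenced from 12 birds. The authors trimmed reads, removed ribosomal RNA with Bowtie2 2.0.2, mapped the rest with STAR to the genome of the zebra finch and quantified genes in FPKM with Cufflinks 2.2.1, depositing values for 18284 genes. The deposited log2 values, for 11246 genes, equalled log2(FPKM + 1) in all 134952 cases (largest difference 1.03e-07), with no scaling between libraries. FPKM keep no read counts per gene, so no count test or counting error could be used. Groups came from the sample labels, and gene symbols from the study's gene lists.

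Genes with FPKM above 0.1 in 10 or more libraries (9566) were fitted by limma 3.58.1 in R 4.3.3 on log2(FPKM + 1), M minus nM, without covariates, as the study took the 6 times as replicates of a state. Benjamini-Hochberg adjustment was over all 9566. A 24-h rhythm was tested by limma with state, cosine and sine. P-values measure the spread between birds of different times. The code was tested on simulated data. Every zinc finger gene was named. Values by library were given for Krüppel-like factors, calls, ids of the state list alone, the 6 largest amplitudes and ids sharing a symbol. The zinc finger genes and other gene lists were chosen with earlier results of these data known. Alternatives covered pseudocount, filter, 3 scalings, test, library weights, covariates and leaving out libraries. A fit leaving out both the ZT1 library of M and the ZT5 library of nM was added after seeing the data.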

Additional observations from a re-analysis of the deposited data

Results flagged for a closer look

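In each state, the highest and lowest of the 6 libraries were compared with the rest by Dixon's ratio (the gap to the nearest library over the whole range of log2(FPKM + 1), set against the 95% critical value for 6). Of 88 groups tested, 14 held a library that stood apart, where chance gives about 1 in 20 for a single group. The groups share the same 12 libraries and are not independent, and the share over all genes compared was not taken. Of the 14, 10 were the M library of ZT17. It stood apart at the low end for ZNF451 (ratio 0.841), KLF12 (0.78), ZBTB8OS (0.745), ZNF407 (09118) (0.718), ZNF280D (0.702), ZNF143 (0.67), ZNF828 (0.633) and KLF6 (0.626), and at the high end for ZNF259 (0.875) and ZNF276 (0.72). The M library of ZT1 stood apart at the high end for KLF13 (0.855). The nM library of ZT5 stood apart at the low end for ZNF318 (0.669) and ZBTB8OS (0.628) and at the high end for ZNF335 (0.635).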

How the results depend on the processing

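Calls among the 37 ids of the cycling list were 4 lower and 0 higher. Counts over all 44 ids (11 lower) include the 7 chosen by the state contrast. With FPKM above 1 required, 28 of the 37 and 32 of the 44 ids were tested and 1 and 5 were lower, no id still tested losing its call. Lower calls became 2 at equal totals (3 of the 44), 12 with library weights (19, where weights called 17.7% of the cycling list lower and 12.6% higher) and 13 without both the ZT1 library of M and the ZT5 library of nM (20). Higher calls, all of them on the cycling list, became 1 at equal totals, by median ratio scaling, without a filter or by linear regression without moderation, 2 by the exact Wilcoxon test, by quantile normalization or without that pair of libraries, and 7 with library weights. With 1 library left out, lower calls ranged from 2 to 12 of the 37 and from 4 (without the M library of ZT5) to 19 (without that of ZT1) of the 44, and higher calls from 0 to 2. The lower share of the whole cycling list moved alike, from 1.76% without the M library of ZT5 to 12.0% without that of ZT1. Over all genes compared these shares were 1.79% and 12.6%. With 1 library left out, the median log2 fold change of the 37 ranged from -0.48 to -0.31. Over the other settings it ranged from -0.54 without that pair of libraries to -0.27 by quantile normalization. The count highest at ZT1 ranged from 22 to 23 in M and from 17 to 23 in nM (5 at equal totals), and rhythm calls stayed at 0.

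Signs turned in 5 ids, none of them called. ZBTB5 (-0.03) became 0.020 at equal totals, 0.13 with weights, 0.017 by quantiles and 0.068 without the pair, and ranged from -0.11 to 0.089 with 1 library left out. ZNF207 (0.01) became -0.13, -0.044, -0.0066 and -0.18 in the same settings and ranged from -0.13 to 0.17. ZNF330 (-0.04) became 0.19 with weights, 0.068 by median ratio and 0.16 by quantiles and ranged from -0.21 to 0.21, ZNF511 (0.24) became -0.051 with weights and ranged from -0.055 to 0.42, and ZFPM1 (-0.37) became 0.083 without the pair. The cause was not tested. Times of day did not pair the birds: deviations at the same time correlated by 0.0257 to 0.475 between states, and 2 of 6 libraries matched their own time best. With time as a replicate block, 4 of the 37 and 11 of the 44 were lower, ZNF407 (09124) no longer passing and ZBTB10 passing.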
